A study of Homo sapiens with 72 samples.

Results

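The wide H3K27me3 domains of REH, an acute lymphocytic leukemia cell line, are 3789 stretches of the genome that were called by Cut&Tag in untreated cells. Cut&Tag brings a transposase to a histone mark by means of an antibody, so that the DNA beside the mark is amplified and sequenced. The H3K27me3 peaks of the 3 untreated REH libraries were merged where they shared at least 1 bp, on chromosomes 1 to 22 and X, which gave 47855 regions. Of these, 9211 had a peak in all 3 libraries, and the 3789 regions (41.1%) with a width of at least 10000 bp were taken as domains. The remaining 5422 regions with a peak in all 3 libraries are called narrow regions here. The domains were thus chosen by the H3K27me3 peaks of the untreated REH libraries, and those values are given as a description. The other lines were NALM6, a second acute lymphocytic leukemia line, and Raji, a Burkitt's lymphoma line. All 3 lines were profiled untreated and after culture with 1 nM bryostatin, an activator of protein kinase C. H3K27me3, H3K4me2 and H3K4me3 were measured with 3 libraries for each line, treatment and mark, which makes 54 libraries, and IgG libraries were not used here. Each line is an established cell line, and the labels do not say whether the 3 replicates came from separate cultures, so that p-values measure the spread between these libraries.

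Trimethylation of lysine 27 of histone H3 is written by Polycomb repressive complex 2 and is found at genes that are kept silent in a cell type, above all regulators of development and genes of other lineages. The complex binds its own product, which lets the mark spread along chromatin into wide blocks. Di- and trimethylation of lysine 4 mark enhancers and promoters of active or poised genes. A promoter that carries both kinds of mark is commonly called bivalent, although in a population of cells the marks can also lie on different cells or alleles.

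The promoters inside the domains ranged from CpG-poor to CpG-rich, and 5 are shown to let the reader see that range beside the marks they carried. Each sequence is the 200 bases upstream of a gene start, written 5′ to 3′ on the strand of the gene from RefSeq on GRCh38.p14, with every CG dinucleotide in capitals, and none of these bases lies in an annotated exon. KRT3, a keratin gene, was read from the minus strand at chr12:52796118-52796317, and its window lay under an H3K27me3 peak in 2 of 3 untreated and 3 of 3 treated REH libraries and under no H3K4 peak. PRRX2, a homeobox gene, was read from the plus strand at chr9:129665447-129665646, with H3K27me3 in 3 of 3 and 3 of 3 libraries and no H3K4 peak. GATA2, a transcription factor of blood stem and progenitor cells, was read from the minus strand at chr3:128493202-128493401, with H3K27me3 in 3 of 3 libraries of both groups and H3K4me2 in 3 of 3 untreated and 2 of 3 treated libraries. LHX4, a LIM homeobox gene, was read from the plus strand at chr1:180230064-180230263 and had all 3 marks in all 3 libraries of both groups. VGF, which encodes a secreted neuropeptide precursor, was read from the minus strand at chr7:101165570-101165769. Its window had H3K27me3 in all 6 libraries, H3K4me2 in 0 of 3 untreated and 3 of 3 treated libraries, and H3K4me3 in 0 of 3 and 2 of 3.
KRT3: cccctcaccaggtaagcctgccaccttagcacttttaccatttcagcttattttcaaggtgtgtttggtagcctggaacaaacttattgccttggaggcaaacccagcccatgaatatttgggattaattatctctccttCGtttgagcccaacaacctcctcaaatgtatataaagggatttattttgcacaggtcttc
PRRX2: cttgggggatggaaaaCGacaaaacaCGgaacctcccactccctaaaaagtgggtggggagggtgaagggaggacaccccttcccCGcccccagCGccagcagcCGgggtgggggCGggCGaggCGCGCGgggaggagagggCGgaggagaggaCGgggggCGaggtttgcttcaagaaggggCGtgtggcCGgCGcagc
GATA2: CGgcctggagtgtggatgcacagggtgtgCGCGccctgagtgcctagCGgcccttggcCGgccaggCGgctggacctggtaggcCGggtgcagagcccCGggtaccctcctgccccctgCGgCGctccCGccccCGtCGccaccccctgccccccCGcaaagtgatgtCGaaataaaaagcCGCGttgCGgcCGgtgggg
LHX4: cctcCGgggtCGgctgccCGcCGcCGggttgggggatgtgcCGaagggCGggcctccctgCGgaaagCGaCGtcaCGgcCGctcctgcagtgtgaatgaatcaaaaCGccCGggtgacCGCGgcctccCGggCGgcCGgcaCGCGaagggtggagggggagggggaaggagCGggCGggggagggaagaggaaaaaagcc
VGF: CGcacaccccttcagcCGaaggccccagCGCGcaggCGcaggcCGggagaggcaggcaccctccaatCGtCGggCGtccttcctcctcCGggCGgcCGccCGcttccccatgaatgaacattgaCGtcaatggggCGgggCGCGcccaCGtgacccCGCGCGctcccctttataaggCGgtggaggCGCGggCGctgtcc
The KRT3 window holds 1 CG, and 92.0% of all 35116 RefSeq promoter windows of this length hold at least as many. PRRX2 has 16 (34.6% of windows hold at least as many), GATA2 19 (26.9%), LHX4 23 (17.2%) and VGF 25 (12.9%). Of the 821 protein-coding genes that start in a domain, 544 matched the RefSeq table, with a median of 9 CG per window, which is also the median of all windows. Among these genes, those whose GENCODE start had H3K4me2 in all 3 untreated libraries had 178 windows with a median of 18 CG. The genes whose GENCODE start had none had 572 windows with a median of 7. Windows were matched by gene name, so that a gene can have several windows and a window need not lie in a domain.

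The depth of the libraries differed. The number of mapped reads (M stands for mega) of the 48 libraries with coverage in RPKM was computed from the RPKM value of 1 read. For H3K27me3 it was 38.9, 32.5 and 15.2 M in untreated REH replicates 1 to 3, and 22.4, 24.5 and 32.4 M in treated REH. It was 5.12 to 32.4 M in Raji and 6.86 to 28.6 M in replicates 2 and 3 of NALM6. Within each REH and Raji group, the order of the H3K27me3 coverage of the domains followed the read numbers. For NALM6 replicates 2 and 3 this order held in the treated group. In untreated NALM6 these replicates had 19.1 and 19.2 M but covered 17.4% and 10.2% of the domain length. The 6 libraries of NALM6 replicate 1 carry another scaling and short peaks. For H3K27me3 they covered at most 1.16 Mb, against 35.5 to 157 Mb for the other NALM6 libraries. H3K27me3 peaks were also short in treated replicate 3 of NALM6 and of Raji, with medians of 380 and 710 bp. A place without a peak in a shallow library is therefore not read as a place without the mark, and the part of depth in the coverage values was not tested. Of 9 B lineage markers, PAX5, EBF1, CD79A, CD79B, BLNK and IGLL1 had H3K4me3 in all 3 untreated REH libraries and all 9 had H3K4me2, and no start of the 9 lay in a domain. Of 13 T lineage, myeloid and erythroid markers, none had H3K4me3 in all 3 libraries, and the starts of TCF7 and ELANE lay in domains.

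The domains covered 75.4 Mb, which is 2.59% of the genome. Their median width was 15870 bp, with quartiles of 12270 and 22810 bp, and the widest had 152310 bp. There were 1246 domains of at least 20 kb, 118 of at least 50 kb and 8 of at least 100 kb. At the width limit, the domains chr20:48011791-48021790, chr6:160349441-160359440 and chr3:8173161-8183160 have 10000 bp, and the regions chr7:130728621-130738610, chr9:121438611-121448600 and chr22:37517101-37527090 stayed outside with 9990 bp. The widest single peak of a domain came from replicate 1, the deepest of the 3 untreated libraries, in 3357 domains (88.6%). One peak spanned at least 90% of the domain in 3303 domains for replicate 1, 736 for replicate 2 and 11 for replicate 3. Without replicate 1, the peaks of the other 2 libraries gave 2112 regions of this width.

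The domains were not spread evenly over the chromosomes. Chromosome 1 held 482 and chromosome 11 held 352, and the densities reached 3.86 domains per Mb on chromosome 22, 3.10 on chromosome 20 and 2.98 on chromosome 19. Chromosome X held 7, or 0.0452 per Mb, and chromosomes 13 and 4 had 0.439 and 0.443 per Mb. The median GC content was 48.1% in domains, 48.0% in narrow regions and 39.7% in 194095 tiles of 15 kb from the whole genome. The median density of CpG was 12.8 per kb in domains, 12.9 in narrow regions and 7.93 in the tiles. Densities per chromosome are descriptions, since they share the same 3 libraries.

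Most domains lay away from gene starts. A protein-coding gene started inside 685 domains (18.1%), 98 of them held at least 2 such starts and the highest number was 6. Of the other 3104 domains, many lay inside genes: 1245 of all domains (32.9%) lay wholly within 1 protein-coding gene, and 1703 (44.9%) touched no protein-coding gene at all. The 821 starts inside are 4.11% of 19970 protein-coding genes of GENCODE 44, or 10.9 per Mb against 6.86 per Mb over the genome. In addition, 873 lncRNA genes and 72 miRNA genes started in domains. Wider domains held a start more often, with 15.3% of the 1705 domains of 10 to 15 kb, 16.9% of 838 domains of 15 to 20 kb, 21.5% of 1128 domains of 20 to 50 kb and 33.9% of the 118 domains of 50 kb or more. These shares are per domain and not per Mb, and a longer stretch has more room for a start. They therefore do not show that starts are denser in wider domains, which was not tested.

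The 12 widest domains ranged from 89630 to 152310 bp, and several lay inside 1 gene. The widest, chr17:79346861-79499170 (152310 bp), and another of 112920 bp beside it at chr17:79232661-79345580 lie inside RBFOX3, a splicing factor of mature neurons. The second widest, chr15:69778871-69923560 (144690 bp), holds the start of 1 lncRNA and of no protein-coding gene. CDH22, a cadherin, starts in a domain of 114100 bp at chr20:46230851-46344950, and PRRX2 and the prostaglandin E synthase gene PTGES start in one of 113290 bp at chr9:129644111-129757400. A domain of 107740 bp at chr11:11364951-11472690 lies within GALNT18, an enzyme gene of protein glycosylation. DUSP23, FCRL6, SLAMF8 and VSIG8 start in a domain of 105540 bp at chr1:159777751-159883290. The others among these 12 include those at the starts of ARC, an immediate early gene of neurons, and of CHST1, a sulfotransferase, with 97210 and 94720 bp.

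HOX and other homeobox genes had a larger share of starts in domains than all genes. Of 39 HOX cluster genes, which set positional identity, 9 (23.1%) started in domains: HOXC6, HOXC8, HOXC9, HOXC10, HOXC11, HOXC12, HOXC13, HOXB8 and HOXB9, against 4.11% of all protein-coding genes. All 9 starts were covered in all 3 treated REH libraries, compared with 642 (78.2%) of the 821 starts of all genes inside domains. The 9 starts lie in only 3 domains, so that neighbouring genes are not separate observations in these shares. Of 92 other homeobox genes, 17 (18.5%) started in domains, among them UNCX (domain of 41440 bp), LHX2 (26930 bp), DLX4 (24350 bp), DLX1 and DLX2 (23540 bp) and DLX5 (22960 bp). Of 6 GATA genes, GATA2 and GATA3 were inside, and the basic helix-loop-helix factors ATOH8 (26400 bp) and NEUROG3 (16140 bp) also started in domains. PAX4, SOX14, FOXN1 and TBX1 were the only members inside of the lists of 9 PAX, 19 SOX, 40 FOX and 17 T-box genes. The lists were chosen with earlier results of these data known, so these shares describe the domains.

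WNT ligands also had a larger share than all genes. Of 19 WNT ligands, 5 (26.3%) started in domains, namely WNT6 and WNT10A in the same domain of 34880 bp, WNT5B, WNT11 and WNT7A. Of 26 BMP, GDF and hedgehog ligands, IHH (48840 bp), SHH (47970 bp), GDF6 and GDF7 were inside (15.4%). None of 53 clustered protocadherins, 7 CDK inhibitors, 12 erythroid genes or 23 B lineage genes did so, and 14 of the B lineage genes had H3K4me3 in all 3 untreated libraries. At the share of all genes, the lists of 7, 12 and 23 genes would hold fewer than 1 such start, so that their counts of 0 are near the background. Of 34 Polycomb subunits, CBX8 was the only one inside, and of 50 ribosomal protein genes it was RPL38. Of 18 T lineage genes, TCF7, GATA3 and BCL11B (16.7%) started in domains, and of 16 myeloid genes S100A8 and ELANE (12.5%) did, both shares above the 4.11% of all genes. These shares rest on 3 and 2 genes in short lists and were not tested. The domains of TCF7, BCL11B and ELANE are near the width limit, with 10870, 10330 and 11140 bp. Those of GATA3 and S100A8 have 17350 and 26700 bp.

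Gene families in tandem filled some of the domains, which was noted after the values were seen. Of 27 keratin genes on chromosome 12, the filament proteins of epithelia, 23 started in 13 domains. None of the 27 had H3K4me3 in all 3 untreated libraries, and 21 of the 23 starts were covered in all 3 treated libraries. One of them, chr12:52764891-52842860, holds KRT76, KRT3, KRT4 and KRT79 and was covered over 89.5%, 90.2% and 97.2% of its length in treated REH. In untreated Raji the same domain was covered over 0%, 45.1% and 70.6%, and in untreated NALM6 over 0%, 11.8% and 0%. Of 15 kallikrein genes on chromosome 19, which encode secreted proteases, 9 started in 4 domains.

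After bryostatin, H3K27me3 peaks still lay over most of the domains in REH. Of the 3789 domains, 3750 (98.97%) had a peak in all 3 treated libraries and 39 in 2 of 3. The length under a peak was 69.9%, 74.6% and 82.0% in treated replicates 1 to 3 and 98.5%, 78.3% and 42.2% in untreated replicates 1 to 3. The 3 treated libraries lay within the range of the untreated ones, whose order followed their read numbers. In the narrow regions, the 3 treated libraries covered 59.0%, 64.3% and 73.6%, less than in the domains in each library. The 3 treated libraries covered 3.09%, 4.06% and 4.81% of the genome, so that the domains were covered 22.7, 18.4 and 17.03 times as densely.

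**Figure D1:**
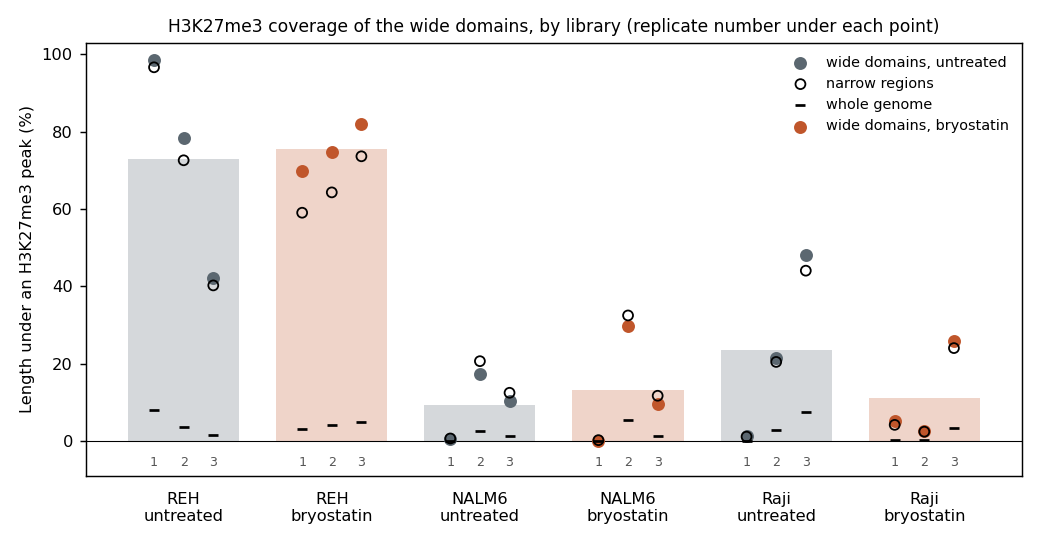
Share of length under an H3K27me3 peak (percent, y axis) in each of the 18 libraries, for the wide domains (filled points; bars give the mean of 3), the narrow regions (open circles) and the whole genome (dashes). The treated REH libraries lie at 69.9% to 82.0% for the domains, and the Raji and NALM6 libraries range from 0.112% to 48.1%.

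Coverage in treated REH was higher in wider domains, which is a description, since the untreated REH libraries set the widths. The mean over the 3 treated libraries had a median of 74.8% per domain, with quartiles of 62.8% and 84.7%. It was under 50% in 371 domains (9.79%) and at least 90% in 487 (12.9%). By width, the median was 70.5% for 10 to 15 kb, 73.6% for 15 to 20 kb, 79.7% for 20 to 50 kb and 88.9% for 50 kb or more. Among the domains with the highest coverage, those inside SYT7, a synaptotagmin, and TTC34 had 100%, 99.7% and 100%, and 99.9%, 99.9% and 99.6% in treated replicates 1 to 3. Among the lowest, the domain at LINC01034 had 0%, 9.64% and 11.0%, and one inside the zinc finger gene ZNF215 had 0%, 6.52% and 37.5%. These 2 domains were narrow, with 10890 and 10730 bp, and had no peak in any Raji library.

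No H3K27me3 region of REH passed the test for a change of signal after bryostatin. Regions merged over the 6 REH libraries with a peak in each were compared with limma on the log2 total signal. Of 8319 tested regions, 0 (0.00%) had an adjusted p under 0.05 and 216 had an unadjusted p under 0.05. Of the 3695 tested regions that lie in domains, 0 passed and 52 had an unadjusted p under 0.05. The treated and untreated libraries did not overlap in 210 of the 3695 regions (5.68%) and in 6.85% of all 8319. As the untreated libraries chose the domains, nothing is read from these counts. In simulated data limma recovered 23% of changes of 1 and 82% of changes of 2 on the log2 scale. These data had independent normal noise, with the spreads shuffled among regions and no centring step. The shares may therefore not hold for the real libraries.

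In Raji, the domains were covered well above the genome and with a wide spread between libraries. The length under a peak was 1.26%, 21.4% and 48.1% in untreated replicates 1 to 3, and 5.23%, 2.49% and 25.8% in treated replicates 1 to 3. The groups overlapped, and in both of them the deepest library covered the most. The difference of the means was -12.4 percentage points, from 23.6% to 11.2%, with an exact two-sided permutation p of 0.7 (n = 3 and 3, smallest possible 0.1) and 0.84 after adjustment over 12 comparisons. It was -0.141 without untreated replicate 3, the deepest library, -23.6 without untreated replicate 1 and -2.62 with equal peak numbers per library. The domains were covered 6.44 to 15.2 times as densely as the genome in the 6 libraries.

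In NALM6, coverage was lower and replicate 1 stood apart. The length under a peak was 0.408%, 17.4% and 10.2% in untreated replicates 1 to 3, and 0.112%, 29.7% and 9.52% in treated ones. The groups overlapped here too. The difference of the means was 3.75 percentage points, from 9.36% to 13.1% (exact two-sided permutation p = 0.9, adjusted 0.9), and its sign turned when untreated replicate 1 (-0.725) or treated replicate 2 (-4.55) was left out. The domains were covered 5.51 to 10.2 times as densely as the genome.

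Wide domains and narrow regions were also compared within each library of the other lines. In Raji the mean over the 6 libraries was 17.4% for domains and 16.04% for narrow regions, and the domains were higher in 6 of 6 libraries. In NALM6 it was 11.2% for domains and 13.03% for narrow regions, and the domains were lower in 6 of 6 libraries. Exact two-sided sign-flip permutation tests over the 6 libraries gave p = 0.03125 for each, the smallest possible, and 0.0625 after adjustment over 12 comparisons, so that neither passed 0.05. The differences were 1.35 and -1.79 percentage points, and whether the lines differ was not tested. These tests take the 6 libraries as independent, and flips by replicate number, over 3 numbers, gave p = 0.25 in the exact test, the smallest that 3 allow, for these and for the other comparisons over 6 libraries given here.

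Single regions of these lines were tested in the same way as in REH, and none of those tested passed. Few could be tested, since a peak in all 6 libraries was required. These were 550 of 98478 merged regions in Raji and 258 of 55554 in NALM6. In domains they were 194 of 10593 and 83 of 5792. In simulated data made as for REH, limma recovered 58.8% of changes of 1 on the log2 scale in Raji and 25% in NALM6. In Raji 0 of 550 tested regions passed (0.00%, limma) and 19 had an unadjusted p under 0.05, of which 194 regions and 8 of these low p-values lay in domains. In NALM6 it was 0 of 258 (0.00%), with 2 at an unadjusted p under 0.05, both among the 83 regions in domains. The groups did not overlap for 21 of the 194 Raji regions (10.8%), where all Raji regions gave 10.2%, and for 6 of the 83 NALM6 regions (7.23%), where all gave 4.65%.

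Domains that had peaks in every library held more CpG and more gene starts than those that were called in REH alone. In untreated Raji, 203 domains had a peak in 3 of 3 libraries, 1644 in 2, 1413 in 1 and 529 in none. In untreated NALM6 the numbers were 196, 730, 830 and 2033. Only 22 domains had a peak in all 18 H3K27me3 libraries. Their median CpG density was 22.0 per kb against 12.8 for all domains, 12 of them (54.5%) held a protein-coding start against 18.1%, and 11 had H3K4me2 in all 3 untreated REH libraries. By contrast, the 175 domains with no peak in any Raji or NALM6 library had 9.66 CpG per kb and 9 of them (5.14%) held a protein-coding start. These are descriptions, since the sets were formed from the libraries themselves, and the median widths also differed, with 18985 and 13330 bp.

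The 22 domains shared by all libraries included those of CCND2, GATA2, DLX3, PMEPA1, EMID1, and the HOXC genes from HOXC11 to HOXC8. The HOXC domain, chr12:53964241-54015710, has 51470 bp and holds the starts of HOXC11, HOXC10, HOXC6, HOXC9 and HOXC8 and of the lncRNA HOTAIR. It was covered over 92.0%, 85.6% and 93.6% in treated REH replicates 1 to 3. In NALM6 it was covered over 3.28%, 97.4% and 86.8% untreated and 1.44%, 100% and 60.2% treated, and in Raji over 8.16%, 59.6% and 76.3% untreated and 27.1%, 18.2% and 51.8% treated. Replicates 2 and 3 of untreated NALM6 and replicate 2 of treated NALM6 thus lay within or above the range of treated REH, treated replicate 3 lay below it, and replicate 1 of NALM6 was near 0 in both groups. The GATA2 domain, chr3:128465081-128500500, was covered over 71.6%, 90.1% and 86.1% in treated REH, over 9.15%, 84.7% and 73.2% in untreated NALM6 and over 8.55%, 76.2% and 91.1% in untreated Raji.

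**Figure D2:**
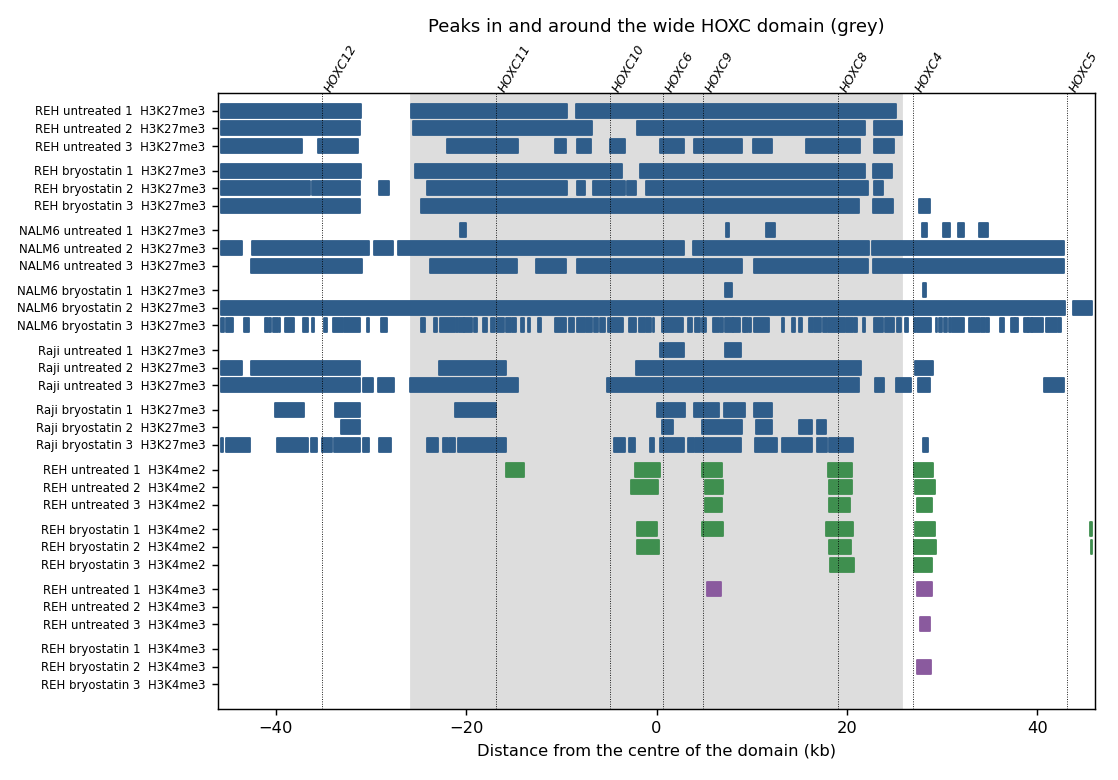
Peaks in and around the HOXC domain (grey), as bars against the distance from its centre in kb (x axis), for H3K27me3 in 18 libraries (blue) and for H3K4me2 (green) and H3K4me3 (purple) in 6 REH libraries each. Dotted lines mark gene starts. H3K27me3 bars fill most of the domain in REH and in replicates 2 and 3 of NALM6, and the H3K4me2 bars at the HOXC8 start are present in 3 of 3 untreated and 3 of 3 treated libraries.

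Some wide domains had no peak at all in 1 of the other lines. No Raji library had a peak in 378 domains (9.98%), and the widest of these lie within NBPF20 (85660 bp), at chr10:110333951-110380170 with no gene, within SPOCK1, and at the start of CX3CL1, a chemokine (43410 bp). The CX3CL1 domain was covered over 82.3%, 82.2% and 90.6% in treated REH and over 0%, 42.3% and 21.1% in untreated NALM6. No NALM6 library had a peak in 1002 domains (26.4%). The widest of these were at the starts of OLFM1, a neuronal secreted protein (60060 bp), of RBFOX3 (chr17:79553201-79611230, 58030 bp) and of EFCAB6, and inside SORCS2, a receptor of neurons, and LDLRAD3. The OLFM1 domain was covered over 84.1%, 88.7% and 93.4% in treated REH and over 0%, 20.8% and 56.1% in untreated Raji. The NALM6 libraries of replicate 1 had few peaks anywhere, so that these counts rest mainly on the other 4.

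In a few domains Raji carried H3K4 marks where REH had H3K27me3, which was noted after the values were seen. In the CX3CL1 domain, H3K4me3 peaks covered 3.50%, 4.75% and 5.02% of the length in untreated Raji and 0% in all 6 REH libraries. H3K4me2 covered 11.0%, 3.43% and 21.0% of it in untreated Raji and 6.73%, 5.48% and 0% in untreated REH. In the EFCAB6 domain, H3K4me3 covered 3.88%, 4.59% and 4.32% in untreated Raji and 0% in all 6 REH libraries, while H3K27me3 covered 0%, 35.9% and 70.8% in untreated Raji and 83.9%, 90.9% and 93.9% in treated REH. At the start of WNT10A, Raji had H3K4me2 and H3K4me3 in 3 of 3 untreated libraries and REH had neither. H3K27me3 lay over this start in 1 of 3 untreated Raji and 2 of 3 untreated NALM6 libraries, so its domain had peaks in both other lines. These differences between lines were not tested for single domains.

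The H3K4 marks were scarce in the domains. In REH, H3K4me2 peaks covered 1.44%, 1.15% and 0.967% of the domain length in untreated replicates 1 to 3 and 1.75%, 1.26% and 0.936% in treated ones, and 4.83% to 6.51% of the narrow regions. H3K4me3 peaks covered 0.451%, 0.106% and 0.115% untreated and 0.107%, 0.253% and 0.144% treated, and 1.27% to 3.37% of the narrow regions. The domains were lower than the narrow regions in 6 of 6 libraries of each mark, with mean differences of -4.31 and -1.72 percentage points. For both marks the exact two-sided sign-flip permutation p was 0.03125, the smallest possible, and 0.0625 after adjustment, so that neither passed 0.05. These 2 comparisons were added after the data were seen. Against the whole genome, the density in domains was 0.679 to 0.851 times for H3K4me2 and 0.149 to 0.430 times for H3K4me3.

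**Figure D3:**
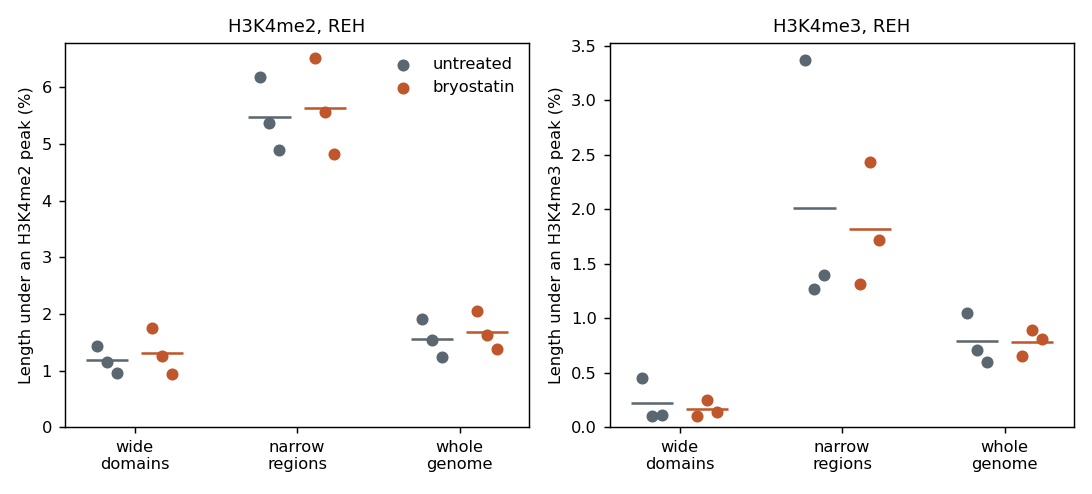
Share of length under an H3K4me2 peak (left) or an H3K4me3 peak (right) in REH (percent, y axes, from 0), for wide domains, narrow regions and the whole genome; each point is 1 library and lines give the mean of 3. In every library of both marks the domains lie under the narrow regions and under the genome.

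Neither share was shown to change with bryostatin or to differ between lines. In REH the mean H3K4me2 share was 1.18% untreated and 1.31% treated, a difference of 0.129 percentage points (exact two-sided permutation p = 0.7, adjusted 0.84), which turned to -0.0876 without treated replicate 1. For H3K4me3 it was 0.224% and 0.168%, a difference of -0.0560 (exact two-sided permutation p = 0.9, adjusted 0.9), which turned to 0.0575 without untreated replicate 1. Untreated Raji libraries covered 0.572%, 0.351% and 0.834% of the domains with H3K4me2, below all 3 untreated REH libraries, and the difference of 0.599 points had an exact two-sided permutation p of 0.1, the smallest that 3 against 3 allows, and 0.171 after adjustment. For H3K4me3 they covered 0.256%, 0.314% and 0.289%, within the range of REH. The untreated Raji H3K4me2 libraries had 6.70 to 13.9 M reads and those of REH 13.7 to 18.8 M, and the part of depth was not tested.

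H3K4me2 was more frequent in domains with a protein-coding start, where a peak anywhere in the domain was counted. Of all domains, 3440 (90.8%) had no H3K4me2 peak in any untreated REH library and 253 (6.68%) had one in all 3. Of the 253, 177 held a protein-coding start, so that 25.8% of the 685 domains with such a start had H3K4me2 in all 3 libraries, compared with 2.45% of those without. No H3K4me3 peak lay in 3642 domains (96.1%) in any untreated library, and 31 (0.818%) had one in all 3, of which 28 held a protein-coding start. Seen from the genes, 2.80% of the 821 starts in domains had H3K4me3 in all 3 libraries, against 13.7% of the 935 starts in narrow regions and 41.4% of the 18214 starts outside both. For H3K4me2 the shares were 19.9%, 47.5% and 50.9%.

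The 6 domains with the highest H3K4me3 signal at a protein-coding start belonged to BAHD1, ZDHHC14, GLI4, TNRC6C, SOCS2 and CDR2L. BAHD1 encodes a reader of H3K27me3 that takes part in silencing. Its H3K4me3 region, chr15:40438931-40443040, carried 2.00, 2.19 and 2.15 times the library median of the total signal in untreated replicates 1 to 3 and 2.06, 2.05 and 1.91 times in treated ones. In the 3 untreated libraries 100% of this region also lay under H3K27me3 peaks. The region at ZDHHC14, a palmitoyltransferase, had 1.76, 1.82 and 1.60 times the median untreated and 1.69, 1.72 and 1.69 times treated, again with 100% under H3K27me3 in each untreated library. SOCS2, an inhibitor of cytokine signalling, had 1.30, 1.25 and 0.905 times untreated and 1.01, 0.918 and 0.785 times treated, and the groups overlapped. At CDR2L the H3K27me3 peaks covered 99.1%, 0% and 77.4% of the H3K4me3 region in untreated replicates 1 to 3, so that the libraries differed on whether the marks met there.

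Some genes of the lists carried both kinds of mark. Of all 821 starts in domains, 19.9% had H3K4me2 and 2.80% had H3K4me3 in all 3 untreated libraries. H3K4me2 was in all 3 at 3 of the 9 HOX starts and 4 of the 17 other homeobox starts. It was so at 2 of 5 WNT starts, 1 of 4 BMP, GDF and hedgehog starts and 0 of 4 basic helix-loop-helix starts. LHX4 and WNT11 had H3K27me3, H3K4me2 and H3K4me3 at the start in all 3 libraries of both groups. BCL11B, a regulator of T cell commitment, had H3K4me2 and H3K4me3 in all 6 libraries, whereas H3K27me3 lay over its start in 2 of 3 untreated and 0 of 3 treated libraries. This start, chr14:99272197, lies near the edge of its domain, chr14:99271951-99282280. Its count therefore depends on where a peak ends, and a change at this base was not tested. DLX1 had H3K4me2 in all 6 libraries and H3K4me3 in 2 of 3 untreated and 2 of 3 treated ones. DLX2, GATA2, HOXC8, HOXC9, HOXB9, LHX6, TBX1, WNT5B, GDF7 and TCF7 had H3K4me2 in all 3 untreated libraries and H3K4me3 in at most 1 of them. The H3K4me2 region of DLX2 carried 6.01, 6.36 and 6.69 times the library median untreated and 5.30, 5.53 and 5.68 times treated, all below the untreated libraries, yet it did not pass the test (limma, log2 change -0.21, adjusted p = 0.453). The starts of SHH, IHH, WNT6, GATA3, NEUROG3, HOXC11, HOXC12, HOXC13, ISL1 and SOX14 had no H3K4 peak in any of the 6 untreated or 6 treated REH libraries.

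H3K27me3 peaks lay over most of the H3K4me2 sites in the domains. In the 3 treated REH libraries, which did not choose the domains, H3K27me3 peaks covered 84.0%, 86.1% and 90.3% of the length of the 276 sites with H3K4me2 in all 3 untreated libraries, against 69.9%, 74.6% and 82.0% of the whole domains. In the other lines, too, the sites had more of their length under H3K27me3 than the whole domains. In Raji the mean over 6 libraries was 36.1% of the H3K4me2 sites against 17.4% of the domains, and in NALM6 42.4% against 11.2%, and the sites were higher in 6 of 6 libraries of each line. Both comparisons were added after the data were seen, with an exact two-sided sign-flip permutation p of 0.03125, the smallest possible, and 0.0625 after adjustment. The 28 H3K4me3 sites had 70.6%, 73.6% and 80.5% of their length under H3K27me3 in treated REH, close to the shares of the whole domains. In the other lines they were above the whole domains in every library. In untreated Raji they had 8.42%, 67.4% and 50.3%, against 1.26%, 21.4% and 48.1% of the domains. In untreated NALM6 they had 3.41%, 40.6% and 31.1%, against 0.408%, 17.4% and 10.2%. This was not tested for the H3K4me3 sites.

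After bryostatin, 8 H3K4me2 regions inside domains rose in REH and none fell. Of 10791 H3K4me2 regions tested over the genome, 1.42% rose and 0.0371% fell at an adjusted p under 0.05 (limma with Benjamini-Hochberg adjustment). In either direction this was 1.45%. Of the 212 tested regions that lie in domains, 8 rose (3.77%), and the median log2 change was -0.08 for these 212 and -0.02 for all. The libraries of the 2 groups did not overlap in 60 of the 212 regions (28.3%) and in 14.7% of all. With the replicate number as a block 9 rose and 1 fell, and the 8 were among the 9.

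The largest rise was at PTPN7, a tyrosine phosphatase of blood cells that acts on MAP kinases. Its region, chr1:202158641-202166680, carried 0.777, 0.560 and 0.476 times the library median in untreated replicates 1 to 3 and 1.76, 1.96 and 1.42 times in treated ones. All 3 treated libraries were above all untreated ones, and the log2 change was 1.52, with an SE of 0.161 and a limma adjusted p of 0.000303. H3K27me3 covered 86.2%, 82.5% and 49.0% of this region in untreated and 61.9%, 79.5% and 75.6% in treated libraries. At SPRY4, an inhibitor of receptor tyrosine kinase signalling, the region chr5:142318781-142327060 had 1.38, 1.37 and 1.22 times the median untreated and 2.62, 2.84 and 2.59 times treated. The groups were separate there too, at a log2 change of 1.02, with an SE of 0.0863 and a limma adjusted p of 5.2e-05. In Raji, H3K4me2 peaks covered 0%, 0% and 0% of the SPRY4 region untreated and 44.1%, 72.2% and 0% treated.

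At VGF, whose promoter is shown above, the H3K4me2 region chr7:101160841-101173100 had 2.999, 2.75 and 3.02 times the library median untreated and 4.28, 4.57 and 4.42 times treated, which is a log2 change of 0.60, with an SE of 0.0825 and a limma adjusted p of 0.00155. Its called length went from 8460, 5780 and 6790 bp to 11620, 12260 and 11170 bp, while the mean RPKM per called base was 259, 334 and 294 untreated and 253, 245 and 285 treated. The domain around it, chr7:101162861-101181750, stayed under H3K27me3 over 94.2%, 94.3% and 96.1% of its length in treated libraries. Its H3K27me3 signal was 124, 131 and 209 mean RPKM untreated and 70.6, 70.5 and 56.9 treated, which is given as a description. The other 5 regions rose by 0.60 to 0.88 on the log2 scale, at STX1A, a syntaxin of synaptic vesicle release, at MYEOV, whose start lies just outside the domain chr11:69297111-69322680, and at 3 places without a protein-coding start.

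The calls depended on the measure of signal. With the mean signal per called base in place of the total signal 0 of the 8 passed, and 3 turned in direction, namely VGF (-0.053), the region at chr1:1057911-1065680 (-0.25) and the one at chr14:105192961-105198990 (-0.35). The log2 change was 0.94 at PTPN7, 0.72 at STX1A, 0.64 at SPRY4, 0.61 at the chromosome 3 region and 0.22 at MYEOV. With the maximum signal PTPN7 (1.05) and MYEOV (0.76) passed. Called lengths of all treated libraries were above all untreated ones at VGF, PTPN7, SPRY4 and the regions on chromosomes 1, 3 and 14, and the part of length in the rises was not tested.

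Leaving out 1 library at a time gave 4 to 10 called regions, with 5 without untreated replicate 2, 4 without treated replicate 1 and 5 without treated replicate 2. PTPN7, SPRY4, VGF and the chromosome 1 region passed each time. STX1A passed only without treated replicate 3, with limma adjusted p of 0.0680 to 0.230 in the other 5 fits. MYEOV passed only without untreated replicate 1 or treated replicate 3, with limma adjusted p of 0.0513 to 0.151 otherwise. The chromosome 3 region lost its call without untreated replicate 2 or treated replicate 1 or 2 (limma adjusted p of 0.0532 to 0.0665), and the chromosome 14 region without treated replicate 1 (0.0586).

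For H3K4me3, 1 region inside a domain fell after bryostatin in REH and none rose. It lies at the start of SEMA6A, a transmembrane semaphorin, at chr5:116572011-116576780. It had 0.969, 0.922 and 0.932 times the library median untreated and 0.555, 0.518 and 0.478 times treated, with all treated libraries below all untreated ones and a log2 change of -0.87, an SE of 0.0842 and a limma adjusted p of 0.000285. It was 1 of 26 tested regions in domains (3.85%), where 0.857% of all 7238 H3K4me3 regions fell and 0.815% rose, 1.67% in all. The groups did not overlap in 4 of the 26 (15.4%) and in 17.6% of all. H3K27me3 covered 100%, 98.5% and 100% of the SEMA6A region in treated libraries and 100%, 100% and 82.2% in untreated ones. With the replicate number as a block 1 region rose and 2 fell, and with the maximum or the mean signal 0 passed, where SEMA6A had log2 changes of -0.66 and -0.86 (limma adjusted p = 0.0590 and 0.0816). Without untreated replicate 3 the number of called regions in domains was 3.

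**Figure D4:**
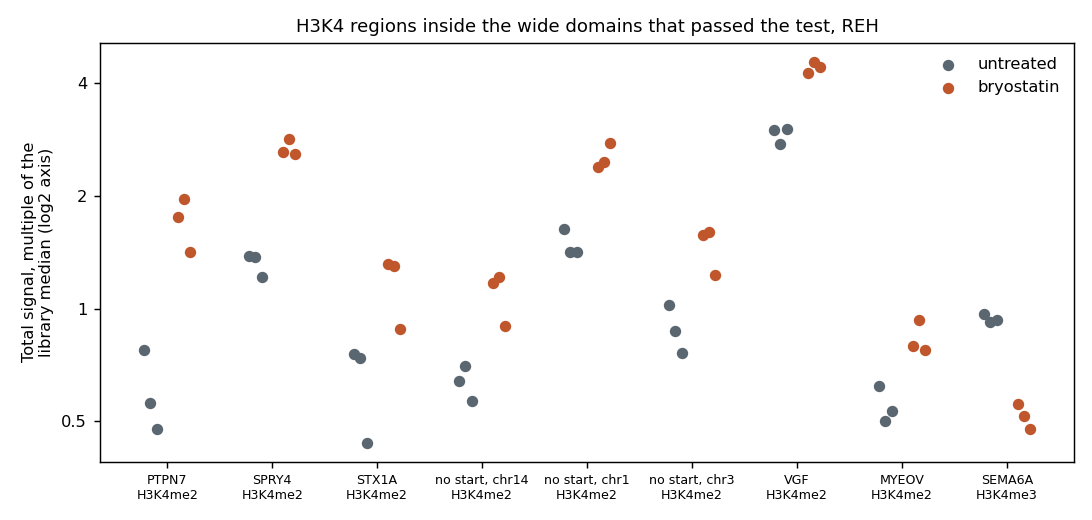
Total signal of the 9 H3K4 regions in domains that passed the test in REH, as a multiple of the library median (y axis, log2 scale), with 3 untreated (grey) and 3 treated (orange) libraries each. The 8 H3K4me2 regions are higher in all treated libraries, by 0.60 to 1.52 on the log2 scale, and the SEMA6A H3K4me3 region is lower in all of them.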

How the data were processed

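The authors trimmed reads with Trim Galore, aligned them to hg38 with Bowtie2, scaled the coverage to RPKM, and used SEACR for peak calling library by library; versions are not given in the sources used here. Each of the 54 deposited peak files holds, per peak, the total and the maximum signal, the coverage summed over the bases and its highest value, in RPKM in 48 libraries; the 6 libraries of NALM6 replicate 1 carry another scaling. The authors also ran DESeq2, whose results were not used.

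Gene starts came from GENCODE 44 and promoters from RefSeq. A start has a mark where a peak lies within 1000 bp of it, and a start lies under H3K27me3 where a peak covers it. A H3K4 region counts as inside a domain with at least 50% of its length there. Regions with a peak in all 6 libraries of a line were tested by limma 3.58.1 in R 4.3.3 (moderated with a trend) on log2 total signal centred on the library median, with Benjamini-Hochberg adjustment over all tested regions at 0.05. For single values per library, exact permutation tests (two-sided) were used, with 12 comparisons adjusted together. The script was tested on simulated data.

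Genes named are those of the widest, least and most covered and unshared domains, listed genes, and the H3K4 regions with the highest signal or a call; some results are not reported here. The domains, gene lists and tests were chosen with earlier results of these data known. Same-numbered REH libraries correlated over 0.1 in every pair for H3K4me2 (0.131 to 0.205) and H3K4me3 (0.179 to 0.311), as did NALM6 H3K27me3 (0.651 to 0.664), where replicate 1 stood apart in both groups. This pairing comes from the data and not the labels, and the block with the replicate number is given where it moved a count. Alternatives changed the signal measure, centring, filter, width limit, peaks per library and replicates.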

Additional observations from a re-analysis of the deposited data

How the results depend on the processing

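With width limits of 20000 and 5000 bp there were 1246 and 7021 domains, and leaving out a library gave 2112 to 4515. With equal peak numbers per library, the difference after bryostatin in domain coverage was -1.67 for REH and -0.246 for NALM6 H3K27me3 and 0.0112 for REH H3K4me3. Leaving out a library gave -12.9 to 15.3 for REH H3K27me3, which has no test, -23.6 to -0.141 for Raji H3K27me3, -4.55 to 10.3 for NALM6 H3K27me3, -0.0876 to 0.318 for REH H3K4me2 and -0.115 to 0.0575 for REH H3K4me3. Called regions are given as the number in domains and then over the genome. For REH H3K27me3 they were 5 and 20 with the maximum signal, 1 and 2 with quantile normalization, 6 and 16 with the replicate block, 0 to 1 and 0 to 6 without a library, and 3 over the genome where a peak in at least 2 libraries of each group was enough. For REH H3K4me2 they were 2 and 51 with the maximum signal, 0 and 1 with the mean signal, 10 and 305 with the replicate block, 4 to 10 and 62 to 344 without a library, and 245 over the genome with the looser peak rule. For REH H3K4me3 they were 0 and 20 with the maximum signal, 0 and 0 with the mean signal, 3 and 202 with the replicate block, 1 to 3 and 51 to 223 without a library, and 44 over the genome without centring. For Raji H3K27me3 the number over the genome was 0 to 1 without a library. The replicate block changed no other call, although sign flips by replicate number raised the exact p of the 6 comparisons within libraries from 0.03125 to 0.25. Same-numbered REH and Raji H3K27me3 libraries did not deviate together in every pair (-0.156 to 0.104 and -0.221 to 0.416), so the numbers were not taken to pair them. The log2 change turned to -0.053 at VGF and -0.35 on chromosome 14 with the mean signal, and on chromosome 1 to -0.25 with the mean and -0.12 with the maximum signal. The cause of these shifts was not tested. Some alternatives were chosen after seeing the data, among them the wide against narrow comparison of the H3K4 marks. Depth limits what a missing peak shows, and the scaling of NALM6 replicate 1 is not known.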
